A study of Homo sapiens with 36 samples.

Results

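Bicarbonate transporters and sodium-proton exchangers were examined in THP-1 cells, a human monocytic leukaemia line, exposed to normal or elevated CO2. The group held 8 genes, chosen by name as the count rows of SLC4A2, SLC4A3, SLC4A4, SLC4A7, SLC4A8, SLC4A11, SLC9A8 and SLC9A9, out of 57500 gene rows. All 8 passed the filter on low counts, as did 17720 genes in all. The cells carried a stable lentiviral short hairpin RNA, either a non-target hairpin (shNT), one against NR4A2 (shNR4A2) or one against NR4A3 (shNR4A3). No group without a hairpin was analysed here. Each of the 3 lines was kept for 4 h at 5% or 10% CO2 in pre-equilibrated medium buffered for pH. At each CO2 level, cells were left untreated or received lipopolysaccharide (LPS) at 2.5 µg/ml for the last 2 h, which gave 12 conditions with 3 libraries each, from separate experiments by the study's methods. Cells at 5% or 10% CO2 without LPS are called basal, and 10% CO2 is called buffered hypercapnia.

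CO2 that enters a cell is hydrated to carbonic acid, which releases a proton and bicarbonate. Members of the SLC4 family move bicarbonate across membranes, some with sodium into the cell, which counters acid, and some out of the cell in exchange for chloride, which counters base. Sodium-proton exchangers of the SLC9 family trade a proton for a sodium ion, and several of them act in internal compartments such as endosomes and the Golgi apparatus. Monocytes and macrophages depend on such carriers during activation and phagosome acidification.

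The 36 libraries held 16171161 to 23929138 counted reads or fragments (median 19639071). Pearson correlations of log2 CPM (counts scaled to library size) between libraries of one condition lay between 0.9845 and 0.992. The labels were checked on the targeted genes. NR4A2 was lower in shNR4A2 than in shNT cells in all 4 states, by 0.91 to 1.67 on the log2 scale, and each difference passed the test. NR4A3 was lower in shNR4A3 cells and passed in 3 of 4 states. At 10% CO2 without LPS the NR4A3 difference was -0.39 on the log2 scale (SE 0.49, adjusted p = 0.735), so that the libraries labelled shNR4A3 showed no detectable loss of their target there. NR4A3 averaged only 0.263 TPM (counts scaled by gene length to a fixed library total) in shNT and 0.205 TPM in shNR4A3 cells in that state. At such low levels a loss could hardly be detected. The 8 monocytic markers were found in all 36 libraries. Their summed level was 870 to 1272 TPM in shNT libraries, 1533 to 1902 in shNR4A2 libraries and 1657 to 2290 in shNR4A3 libraries. Of 8 markers of other cell types, MS4A1 of B cells was at 0 in 28 libraries, HBB of erythroid cells in 30 and CD3E of T cells in 13. PECAM1, which monocytes also express, made up most of that list at 74.0 to 289 TPM. The list summed to 77.2 to 210 TPM in shNT, 154 to 295 in shNR4A2 and 115 to 213 in shNR4A3 libraries.

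The 8 genes differed widely in level. On the TPM scale, which corrects for gene length, SLC4A2 was the highest, with a mean of 69.4 over 36 libraries and condition means between 63.9 and 78.0. SLC4A2 encodes a chloride-bicarbonate exchanger that is found in most tissues, and it is annotated at chr7:151057210-151076527 on the plus strand of GRCh38. It alone made up 57.5% to 75.2% of the summed TPM of the 8 genes. SLC9A8, a sodium-proton exchanger of the Golgi and endosomal compartments (chr20:49812713-49892242, plus strand), followed with a mean of 20.4 TPM and condition means of 14.3 to 32.1. SLC4A7, an electroneutral sodium-bicarbonate cotransporter (chr3:27372721-27484420, minus strand), had a mean of 5.41 TPM with condition means of 2.50 to 9.63. SLC4A11, a proton and water permease that does not carry bicarbonate (chr20:3227417-3239190, minus strand), had a mean of 3.97 TPM with condition means of 2.46 to 6.25.

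The other members were near or under 1 TPM. SLC9A9, an endosomal sodium-proton exchanger (chr3:143265222-143848531, minus strand), had a mean of 1.15 TPM and 11 to 49 counts per library. SLC4A4, an electrogenic sodium-bicarbonate cotransporter (chr4:71186757-71572087, plus strand), had a mean of 1.08 TPM and 16 to 154 counts. SLC4A8, a sodium-driven chloride-bicarbonate exchanger (chr12:51391317-51515763, plus strand), had a mean of 0.608 TPM and 35 to 90 counts. SLC4A3, a chloride-bicarbonate exchanger known from excitable tissues (chr2:219627327-219641980, plus strand), had a mean of 0.338 TPM and 3 to 22 counts. These few counts limit what can be seen for SLC4A3.

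The order of the levels was firm at the top. Libraries of SLC4A2 lay above those of SLC9A8, those of SLC9A8 above those of SLC4A7, and those of SLC4A11 above those of SLC9A9 in 12 of 12 conditions. SLC4A7 and SLC4A11 separated in that order in 7 conditions and in the opposite order in 1. SLC9A9 lay above SLC4A4 in 7 conditions and below it in 4, and the 4 were those of shNT cells. SLC4A4 lay above SLC4A8 in 5 conditions and below it in 1. SLC4A8 lay above SLC4A3 in 8 conditions and was not separated from it in the rest. Some exonic bases of SLC4A2 (331 with CDK5 and 714 with ENSG00000244151), SLC4A8 (392 with GALNT6) and SLC9A9 (55 with SLC9A9-AS2) also belong to a gene on the opposite strand. Whether counting used strand is not given in the sources used here, so reads there could not be assigned with certainty.

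**Figure D1:**
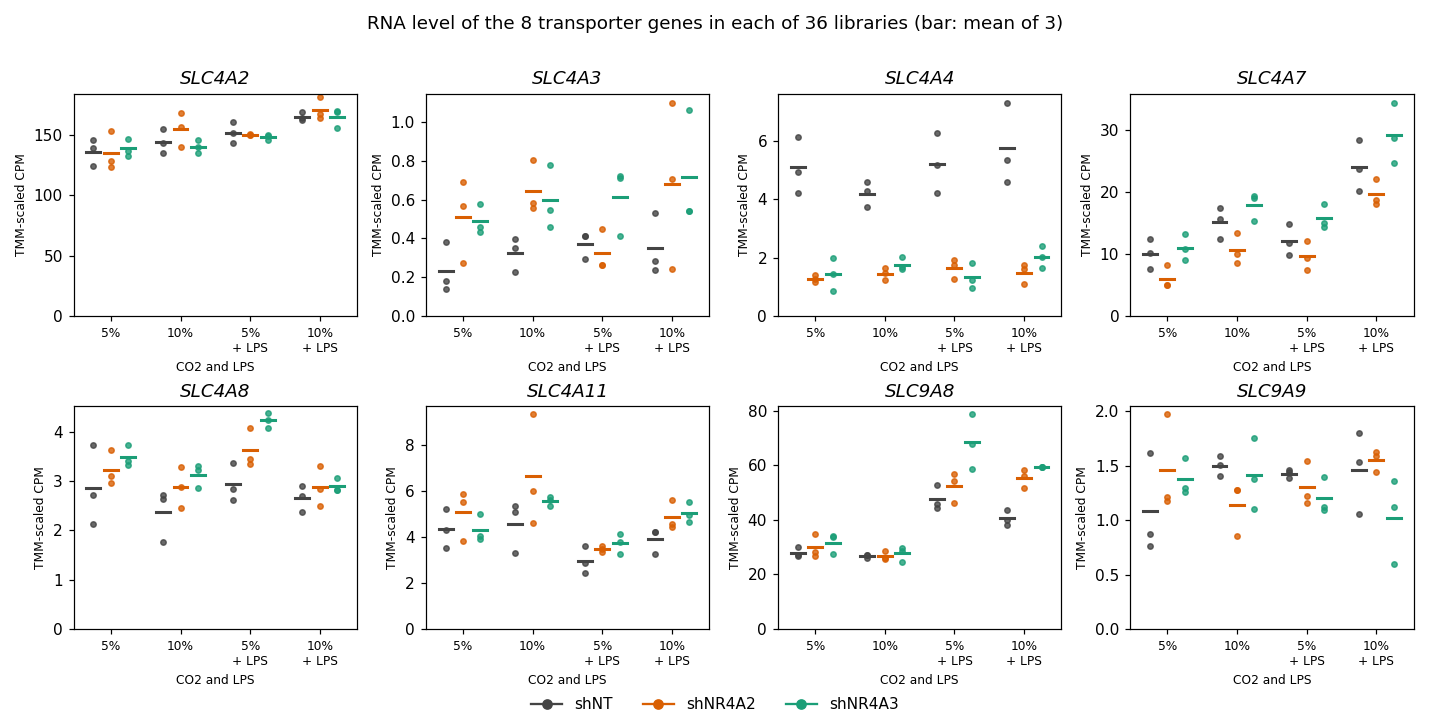
TMM-scaled CPM (y axis, each panel from 0) of the 8 genes in each library, by CO2 level and LPS (x axis) and by line (colour), with points for single libraries and bars for the mean of 3. SLC4A7 is higher at 10% than at 5% CO2 in every line, SLC9A8 is higher with LPS, and SLC4A4 is lower in both knockdown lines than in shNT cells.

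The members also differed in how far they moved over the 12 condition means. The spread from the lowest to the highest condition was 2.28 on the log2 scale for SLC4A7, 2.05 for SLC4A4, 1.34 for SLC9A8 and 1.30 for SLC4A3. It was 1.09 for SLC4A11, 0.83 for SLC4A8 and 0.62 for SLC9A9. SLC4A2 had the least, 0.34, and only 6.61% of all tested genes had a smaller spread, against 92.4% for SLC4A7. The spread of low genes such as SLC4A3 includes more counting error.

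For 3 of the 8 genes, libraries did not overlap in CPM, in the same direction, in every comparison of 1 kind. These were SLC4A7 with CO2, SLC9A8 with LPS and SLC4A4 with knockdown. In TPM, the SLC4A7 libraries of both CO2 levels overlapped in basal shNT and in basal shNR4A2 cells. The bases just upstream of the RefSeq starts (GRCh38.p14) of these 3 genes are shown to give their sequence context. Each window is the 250 bases before 1 annotated start, 5′ to 3′ on the gene's strand. The windows are chr3:27484385-27484634 on the minus strand for SLC4A7, chr20:49812578-49812827 on the plus strand for SLC9A8 and chr4:71186515-71186764 on the plus strand for SLC4A4. Capitals mark a match to any of 5 motifs searched on both strands.
SLC4A7: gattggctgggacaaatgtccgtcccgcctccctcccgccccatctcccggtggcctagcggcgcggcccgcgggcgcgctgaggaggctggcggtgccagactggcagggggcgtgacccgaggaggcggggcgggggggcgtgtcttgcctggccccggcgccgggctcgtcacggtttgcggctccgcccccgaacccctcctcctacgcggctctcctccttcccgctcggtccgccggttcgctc
SLC9A8: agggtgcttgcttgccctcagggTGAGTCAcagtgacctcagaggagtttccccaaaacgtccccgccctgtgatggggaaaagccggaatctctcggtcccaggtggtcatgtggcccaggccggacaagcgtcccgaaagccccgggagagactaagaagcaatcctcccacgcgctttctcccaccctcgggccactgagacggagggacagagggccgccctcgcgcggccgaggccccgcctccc
SLC4A4: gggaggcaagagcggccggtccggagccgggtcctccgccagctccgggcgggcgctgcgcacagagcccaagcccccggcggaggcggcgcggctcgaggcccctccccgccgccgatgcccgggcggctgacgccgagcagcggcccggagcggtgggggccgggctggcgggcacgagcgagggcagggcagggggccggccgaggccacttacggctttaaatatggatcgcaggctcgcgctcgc

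The motifs were the NR4A monomer element NBRE (AAAGGTCA), an ETS motif (CCGGAAG), an NF-kB motif, AP-1 (TGAGTCA) and the cAMP response element CRE (TGACGTCA). Of 35116 windows of the same length, 1.05% held the NBRE, 8.52% the ETS motif, 0.527% the NF-kB motif, 4.20% AP-1 and 1.65% the CRE. Windows were found for 7 of the 8 genes, 16 in all; SLC4A11 was not among them. AP-1 was the one motif matched, in the SLC9A8 window, where it starts 227 bases upstream, and in a window at another SLC4A4 start (chr4:71235810-71236059), where it lies on the opposite strand, 76 bases upstream. The start used in these cells was not determined, and a match of letters is not evidence of binding.

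The first comparison asked which members respond to buffered hypercapnia. SLC4A7 was higher at 10% than at 5% CO2 in all 3 lines, with and without LPS. In basal shNT cells it stood at 10.2, 7.50 and 12.4 CPM at 5% CO2 and at 17.3, 15.7 and 12.5 CPM at 10% CO2. In basal shNR4A2 cells it was 5.02, 4.92 and 8.19 CPM at 5% and 8.49, 13.4 and 10.1 CPM at 10%. In basal shNR4A3 cells it was 8.95, 10.9 and 13.2 CPM at 5% and 15.2, 19.3 and 19.0 CPM at 10%. In CPM the 2 CO2 levels did not overlap in any line. The highest library at 5% and the lowest at 10% nearly met in shNT and in shNR4A2 cells. In TPM they overlapped in shNT cells (5.34 at 5% against 4.901 at 10%) and in shNR4A2 cells (3.473 against 3.215), and not in shNR4A3 cells.

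With LPS, SLC4A7 was again higher at 10% CO2. In shNT cells it was 9.87, 11.7 and 14.9 CPM at 5% CO2 and 20.1, 28.4 and 23.6 CPM at 10%. In shNR4A2 cells it was 7.34, 9.40 and 12.1 CPM at 5% and 18.1, 22.1 and 18.6 CPM at 10%. In shNR4A3 cells it was 14.3, 14.9 and 18.1 CPM at 5% and 28.7, 34.3 and 24.6 CPM at 10%. Libraries at 10% CO2 again all lay above those at 5% CO2 in each line. Such a separation in CPM, in the same direction in all 6 comparisons, was seen for 151 genes, 0.852% of those tested.

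In single comparisons SLC4A7 passed the test in 4 of 6. The log2 differences with LPS were 0.99 (SE 0.16, adjusted p = 0.00793) in shNT, 1.02 (SE 0.18, adjusted p = 0.0449) in shNR4A2 and 0.89 (SE 0.14, adjusted p = 0.0197) in shNR4A3 cells. In the basal state the difference was 0.71 (SE 0.15, adjusted p = 0.0302) in shNR4A3 cells. It was 0.59 (SE 0.18, adjusted p = 0.139) in shNT cells and 0.81 (SE 0.22, adjusted p = 0.312) in shNR4A2 cells, both short of the threshold of 0.05. With no filter on low counts both passed (adjusted p = 0.0106 and 0.0155), so that SLC4A7 was then called in all 6. Here the replicate numbers paired the basal shNR4A2 libraries, and with the number as a block the adjusted p of SLC4A7 was 0.0406. Genes higher at 10% CO2 made up 4.47%, 0.152% and 0.931% of those tested with LPS and 0.327%, 0.00564% and 0.559% in the basal state, for shNT, shNR4A2 and shNR4A3 cells in that order. The basal shNR4A2 comparison called 2 genes in all, and 361 with the block.

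Over the 3 lines together, SLC4A7 rose by 0.71 on the log2 scale without LPS (1.63-fold, SE 0.12, adjusted p = 0.000664) and by 0.97 with LPS (1.96-fold, SE 0.11, adjusted p = 8.19e-06). Both calls held whichever library was left out, with adjusted p of at most 0.00228 and 3.45e-05. Single-line calls were less firm. The basal shNR4A3 call was lost without replicate 2 at 5% CO2 or without replicate 2 or 3 at 10% CO2, where the adjusted p reached 0.229. The shNR4A2 call with LPS was lost on leaving out any library but replicate 3 at 5% CO2, up to an adjusted p of 0.281. The shNR4A3 call with LPS was lost without replicate 1 or 2 at 10% CO2, up to 0.121.

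SLC4A2, SLC4A8 and SLC4A11 had smaller differences and passed only in the average over lines with LPS. In single lines SLC4A2 and SLC4A11 had positive log2 differences in 6 of 6 comparisons, as did 16.5% of tested genes. SLC4A8 had negative ones in 6 of 6, as did 17.3%. For each of these genes the libraries did not overlap in CPM in 3 of the 6. Per comparison, 6.41% to 15.3% of tested genes separated upward and 7.35% to 14.5% downward. In the average over lines with LPS, SLC4A2 rose by 0.16 (SE 0.04, adjusted p = 0.00364) and SLC4A11 by 0.44 (SE 0.10, adjusted p = 0.00344), both on the log2 scale. In shNT cells with LPS, SLC4A2 was 160, 151 and 143 CPM at 5% CO2 and 169, 164 and 162 CPM at 10%. In TPM these libraries overlapped, with means of 67.8 at 5% and 67.6 at 10% CO2. With LPS the TPM means of SLC4A2 were 65.0 at 5% and 71.3 at 10% in shNR4A2 cells, and 63.9 and 68.6 in shNR4A3 cells. SLC4A11 in shNT cells with LPS was 2.88, 2.41 and 3.61 CPM at 5% and 4.23, 4.20 and 3.27 CPM at 10%, which overlapped. In the average over lines with LPS, SLC4A8 fell by 0.34 (SE 0.10, adjusted p = 0.0146), and without a filter on low counts its adjusted p was 0.0871. In shNR4A3 cells with LPS, SLC4A8 was 4.38, 4.06 and 4.24 CPM at 5% and 3.07, 2.82 and 2.82 CPM at 10%, with no overlap. Genes called higher in this average were 14.4% and genes called lower 14.5% of those tested, beside 3 of 8 members higher and 1 of 8 lower. Whether the members' share differs from that of all genes was not tested. In the average of basal cells, SLC4A7 was the one member called, among 8.18% of genes called higher.

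For SLC9A8 the log2 difference between 10% and 5% CO2 lay between -0.23 and 0.08 in single lines, and it averaged -0.13 (SE 0.07, adjusted p = 0.200) without and -0.12 (SE 0.06, adjusted p = 0.159) with LPS. SLC4A4, SLC4A3 and SLC9A9 passed in none of the 8 comparisons. Their standard errors in single lines reached 0.31, 0.59 and 0.36, so differences of that size could not be seen at these counts. SLC4A3 ranged from -0.09 to 1.10 on the log2 scale.

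**Figure D2:**
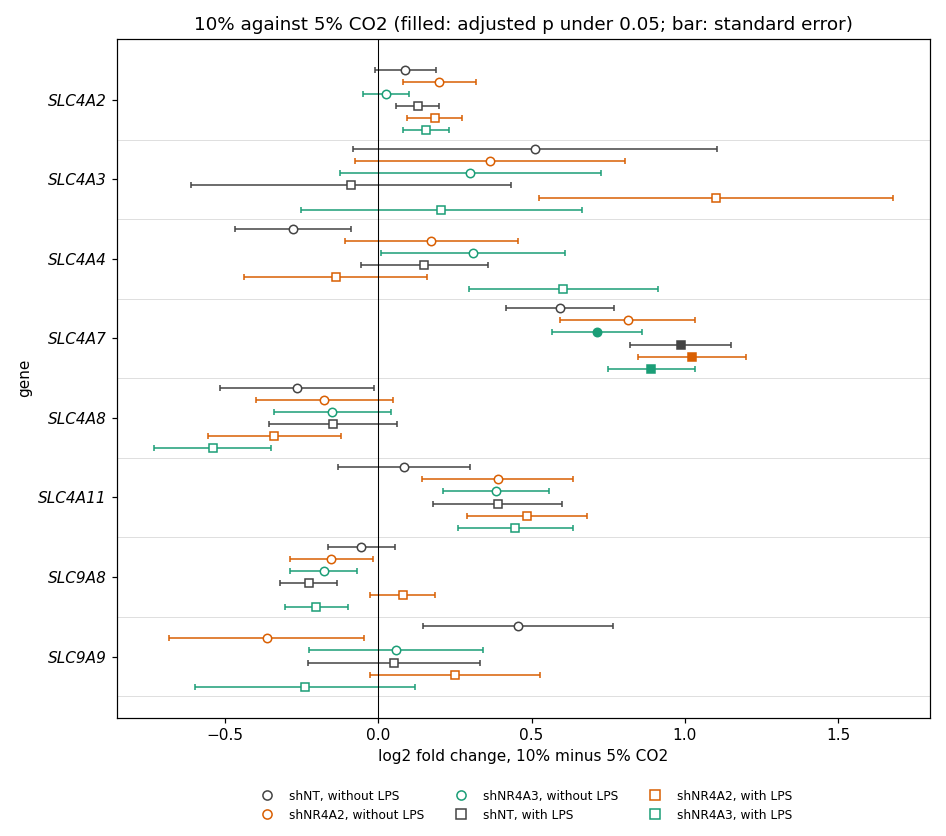
Log2 fold change at 10% against 5% CO2 (x axis) for each gene (y axis) in 3 lines without (circles) and with LPS (squares), with bars for the standard error and filled symbols for an adjusted p under 0.05. All 6 values of SLC4A7 lie between 0.59 and 1.02, and 4 of them are filled.

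Whether the CO2 difference itself depended on the line or on LPS was tested with interaction terms. For SLC4A7 the response in a knockdown line minus that in shNT cells was between -0.08 and 0.22 on the log2 scale, with standard errors of 0.24 to 0.31, and no member passed. In the 4 tests edgeR called 0 of the 17720 genes and so did DESeq2, although 192 to 458 genes had an unadjusted p below 0.05 by edgeR; with no filter on low counts 2 genes were called in 1 of the tests. The SLC4A7 response was 0.26 larger with LPS than without it on the log2 scale (SE 0.17, adjusted p = 0.539). No member was called in that test, in which 353 genes (1.99%) were.

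The second comparison asked which members respond to LPS, whose action was visible in TNF and IL1B, both higher with LPS in all 6 comparisons. SLC9A8 rose with LPS in each line and at each CO2 level. In shNT cells it was 26.9, 29.9 and 26.8 CPM without and 52.9, 45.7 and 44.4 CPM with LPS at 5% CO2. At 10% CO2 it was 25.8, 27.2 and 27.1 CPM without and 43.7, 39.9 and 38.2 CPM with LPS. The groups were far apart at both CO2 levels, and replicates were close.

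In shNR4A2 cells SLC9A8 went from 28.1, 34.9 and 26.8 CPM to 56.8, 46.2 and 54.3 CPM at 5% CO2. At 10% CO2 it went from 25.8, 28.7 and 26.1 CPM to 56.1, 51.8 and 58.4 CPM. In shNR4A3 cells it went from 33.5, 34.0 and 27.3 CPM to 78.8, 58.7 and 67.7 CPM at 5% CO2, where 1 library held the highest value of all 36. At 10% CO2 it went from 24.6, 29.7 and 28.7 CPM to 59.4, 59.3 and 59.2 CPM. No library with LPS overlapped one without in any line, as for 8.97% of tested genes.

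The fold changes of SLC9A8 were 1.72, 1.75 and 2.16 at 5% CO2 and 1.53, 2.08 and 2.17 at 10% CO2 for shNT, shNR4A2 and shNR4A3 cells. The highest adjusted p among the 6 was 0.00104, and with any single library left out it stayed at or below 0.00716. Of all tested genes, 6.87% were called higher in all 6 LPS comparisons, and SLC9A8 was the one member among them.

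SLC4A7 was also higher with LPS on average in all 6 comparisons and passed in 4 of them. At 10% CO2 the log2 differences were 0.68 (SE 0.15, adjusted p = 0.00206) in shNT, 0.89 (SE 0.16, adjusted p = 0.00041) in shNR4A2 and 0.72 (SE 0.13, adjusted p = 0.000617) in shNR4A3 cells. At 5% CO2 it was 0.52 (SE 0.16, adjusted p = 0.0330) in shNR4A3 cells, a call lost on leaving out replicate 1 or 2 without LPS or replicate 3 with LPS, up to an adjusted p of 0.151. In shNR4A2 cells it was 0.66 (SE 0.24, adjusted p = 0.0744), and 0.00564 with the replicate number as a block, since the numbers paired these libraries. In shNT cells it was 0.28 (SE 0.19, adjusted p = 0.340). The libraries overlapped in these last 2 comparisons and not in the other 4. Upward separation was seen for 19.4% to 24.5% of tested genes in each of those 4.

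Genes higher with LPS made up 11.2%, 8.91% and 11.9% of those tested at 5% CO2 and 15.1%, 16.5% and 20.6% at 10% CO2, for shNT, shNR4A2 and shNR4A3 cells. The levels of SLC4A7 with both stimuli can be set beside those with neither. In shNT cells the mean was 10.0 ± 2.46 CPM (SD, n = 3) at 5% CO2 without LPS and 24.02 ± 4.15 CPM at 10% CO2 with LPS. In shNR4A2 cells the same means were 6.04 ± 1.86 and 19.6 ± 2.14 CPM. In shNR4A3 cells the libraries ranged from 8.95 to 13.2 CPM with neither stimulus and from 24.6 to 34.3 CPM with both.

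SLC4A11 had lower values with LPS in all 6 comparisons, as did 29.9% of tested genes, with log2 differences from -0.54 to -0.12, and passed in none, with adjusted p of 0.0957 at the lowest. Scaling by library size alone, which moved the median of all genes in the LPS comparisons by -0.25 to -0.18, called 3 of the 6. SLC4A2 was called higher in shNR4A3 cells at 10% CO2 (log2 difference 0.25, SE 0.07, adjusted p = 0.00689), where it was 140, 135 and 145 CPM without and 169, 155 and 170 CPM with LPS. With library size alone the SLC4A2 difference was at 0 to 2 decimals (-0.0011, adjusted p = 0.992). SLC4A3, SLC4A4, SLC4A8 and SLC9A9 were called in none of the 6 LPS comparisons. The summed markers of other cell types, mostly PECAM1, were 77.2 to 159 TPM with and 128 to 210 TPM without LPS in shNT cells, and their part in these differences was not tested.

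**Figure D3:**
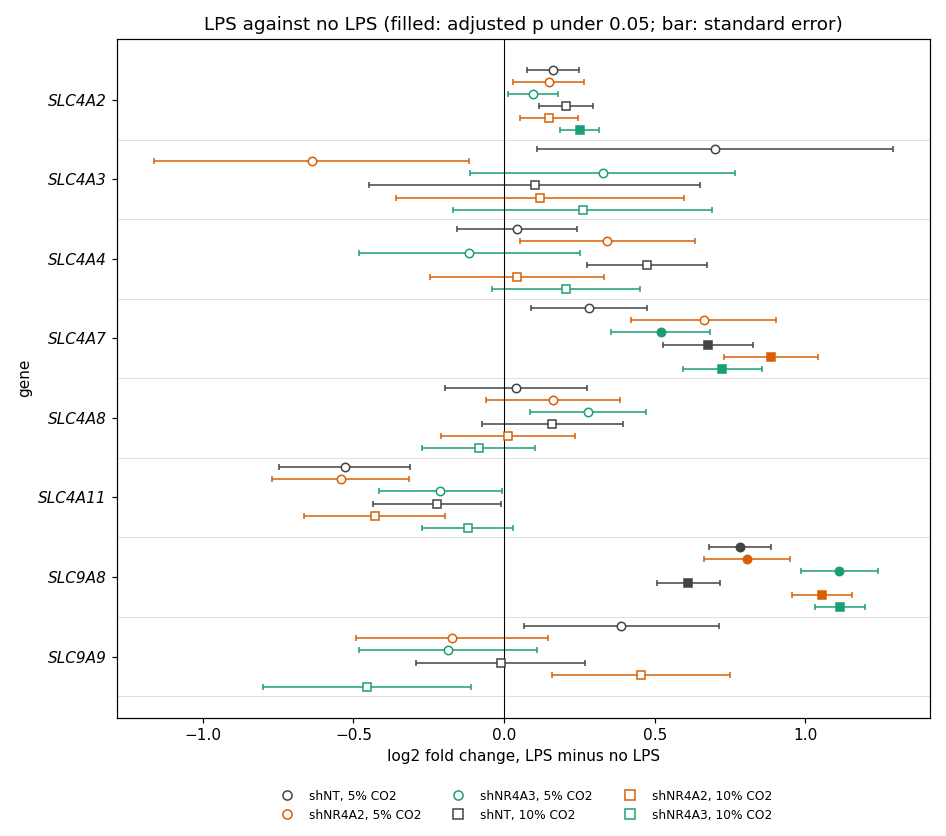
Log2 fold change with against without LPS (x axis) for each gene (y axis) in 3 lines at 5% (circles) and 10% CO2 (squares), with bars for the standard error and filled symbols for an adjusted p under 0.05. All 6 values of SLC9A8 are filled and lie between 0.61 and 1.12, while those of SLC4A11 lie below 0 and are open. With scaling by library size alone, which moved the median of all genes by -0.25 to -0.18, 3 of the SLC4A11 values passed.

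The third comparison asked how the members differ between the knockdown lines and shNT cells. SLC4A4 was lower in both knockdown lines in every state. In shNT cells it was 4.22, 4.93 and 6.12 CPM at 5% CO2 and 3.72, 4.58 and 4.27 CPM at 10% CO2. With LPS the shNT values were 4.22, 6.26 and 5.17 CPM at 5% and 4.58, 5.33 and 7.29 CPM at 10% CO2. All shNT libraries lay above 3.7 CPM.

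In shNR4A2 cells SLC4A4 was 1.25, 1.18 and 1.41 CPM at 5% and 1.22, 1.47 and 1.63 CPM at 10% CO2. With LPS it was 1.74, 1.27 and 1.91 CPM at 5% and 1.10, 1.74 and 1.60 CPM at 10% CO2. None of these came near the shNT libraries. In shNR4A3 cells it was 0.862, 1.43 and 2.00 CPM at 5% and 1.67, 1.60 and 2.02 CPM at 10% CO2. With LPS it was 0.947, 1.81 and 1.24 CPM at 5% and 2.00, 2.39 and 1.63 CPM at 10% CO2. The highest knockdown library, at 2.39 CPM, was below the lowest shNT library, at 3.72 CPM. Of all tested genes, 0.92% separated downward in all 8 comparisons.

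SLC4A4 passed in 8 of 8 comparisons, with levels 2.38 to 3.93 times lower than in shNT cells. The log2 differences in shNR4A2 cells were -1.98 (SE 0.22) and -1.53 (SE 0.23) at 5% and 10% CO2, and -1.66 (SE 0.25) and -1.95 (SE 0.25) with LPS. In shNR4A3 cells they were -1.82 (SE 0.27) and -1.25 (SE 0.21), and -1.98 (SE 0.27) and -1.52 (SE 0.23) with LPS. The adjusted p lay between 0.00016 and 0.00333, and no library left out alone ended a call. Genes called lower in shNR4A2 cells were 2.47% and 3.4% of those tested at 5% and 10% CO2, and 2.37% and 9.58% with LPS. In shNR4A3 cells they were 2.83% and 3.35%, and 2.17% and 7.21% with LPS. In all 8 comparisons together, 51 genes (0.288%) were called lower. The libraries of shNT cells serve both knockdown lines, so the lines' differences are not independent of each other. Each line came from 1 hairpin as far as the labels tell, and the lines also differed in the summed monocytic markers given above; the part of either in the SLC4A4 difference was not tested. In bulk RNA, fewer cells that express a gene and less of its RNA per cell cannot be told apart.

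SLC9A8 was called higher in the knockdown lines than in shNT cells in 3 of the 4 comparisons with LPS. Its difference was positive in 8 of 8 knockdown comparisons, as for 14.1% of tested genes. The log2 difference at 10% CO2 with LPS was 0.45 (SE 0.09, adjusted p = 0.00297) in shNR4A2 and 0.55 (SE 0.08, adjusted p = 0.000474) in shNR4A3 cells. At 5% CO2 with LPS it was 0.52 (SE 0.11, adjusted p = 0.0229) in shNR4A3 and 0.14 (SE 0.11, adjusted p = 0.520) in shNR4A2 cells. The call in shNR4A3 cells at 5% CO2 was lost without replicate 2 or 3 of shNT or without replicate 1 or 3 of shNR4A3 cells, up to an adjusted p of 0.101. Without LPS the 4 values were between 0.00 and 0.18, and none passed. Genes called higher were 9.29% and 3.84% of those tested in shNR4A2 cells with LPS at 10% and 5% CO2, and 7.3% and 3.24% in shNR4A3 cells.

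The test of whether the LPS response of SLC9A8 itself differed from shNT cells did not pass after adjustment. It was 0.42 larger in shNR4A3 cells on the log2 scale (SE 0.10, unadjusted p = 0.000462, adjusted p = 0.0640) and 0.24 larger in shNR4A2 cells (SE 0.11, adjusted p = 0.923). In these tests 97 and 40 genes passed, 0.547% and 0.226% of those tested. The first value crossed the threshold under other settings, as with DESeq2 (adjusted p = 0.0163), without the filter on low counts (0.0130) and with the replicate number as a block (0.0292).

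SLC4A7 differed in sign between the knockdown lines. Against shNT cells its log2 difference in shNR4A2 cells was -0.72 and -0.51 at 5% and 10% CO2, and -0.33 and -0.30 with LPS. In shNR4A3 cells it was 0.13 and 0.24, and 0.38 and 0.28 with LPS. None of the 8 passed in edgeR's fit of each pair with the filter and without a block, with adjusted p of 0.0725 at the lowest, and libraries overlapped in each. For shNR4A2 at 5% CO2 the difference did pass with DESeq2 (adjusted p = 0.0447), with no filter on low counts (0.00289) and in 1 fit to all libraries (0.0324), and at 10% CO2 it passed with no filter (0.0434). Where the numbers paired the libraries, the block gave an adjusted p of 0.00094 for shNR4A2 at 5% CO2, 0.0395 for shNR4A2 at 5% CO2 with LPS and 0.0201 for shNR4A3 at 5% CO2 with LPS. The block also raised the genes called in these 3 comparisons, from 1008 to 3803, from 1101 to 4369 and from 958 to 3312.

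The other members were not called in any knockdown comparison. SLC4A2 stayed within -0.05 and 0.10 on the log2 scale, with standard errors of at most 0.11. SLC4A8 had positive differences in 8 of 8, from 0.11 to 0.52, as did 14.1% of tested genes, with adjusted p of 0.144 at the lowest. SLC4A11 lay between -0.01 and 0.53. SLC4A3 was between -0.20 and 1.13 with standard errors of 0.45 to 0.57, and SLC9A9 between -0.52 and 0.42.

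**Figure D4:**
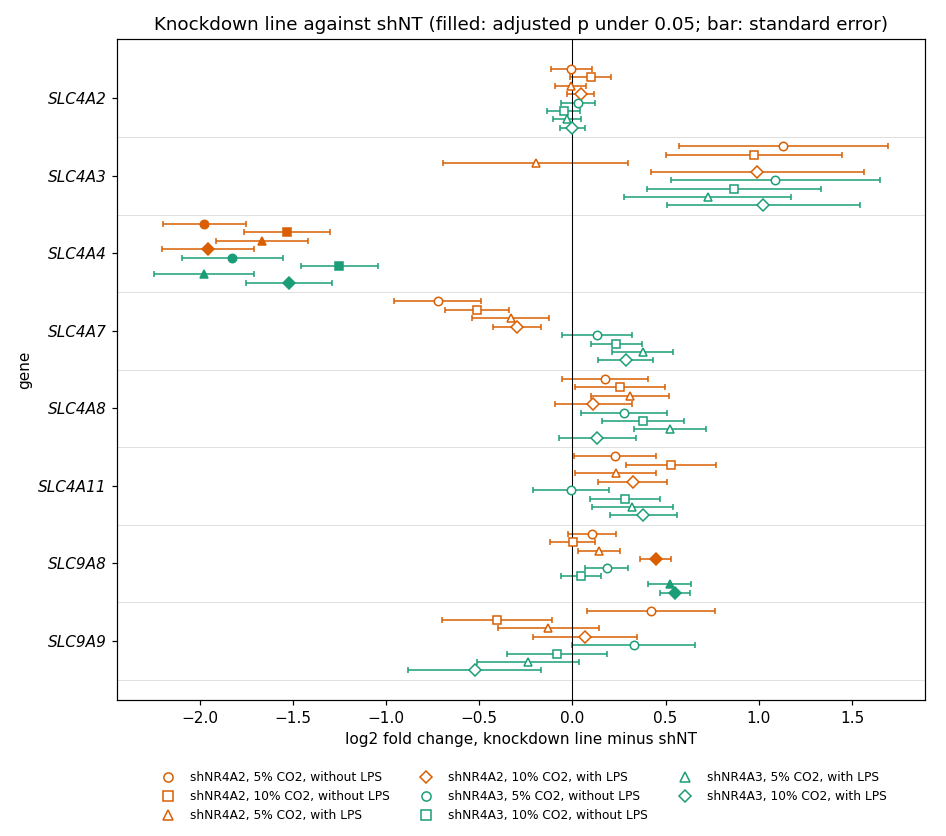
Log2 fold change of each knockdown line against shNT (x axis) for each gene (y axis) in 4 states, with bars for the standard error and filled symbols for an adjusted p under 0.05. All 8 values of SLC4A4 are filled and lie between -1.98 and -1.25, and 3 values of SLC9A8, all with LPS, are filled.

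The patterns of the members over the 12 condition means were compared with those of all tested genes, as a description. The genes most like SLC4A7 by Pearson's r of log2 CPM were IARS1 (0.967), PM20D2 (0.967) and MRPS33 (0.965). Those most like SLC4A4 were IGF1R (0.969), ZNF765 (0.968) and PTGDS (0.963). Those most like SLC9A8 were OASL (0.992), PTPN11P3 (0.990) and LINC00528 (0.989). PTPN11P3 is a pseudogene, whose reads can be shared with its parent gene. Among the members themselves, SLC4A7 and SLC9A8 had an r of 0.44, and SLC4A7 and SLC4A4 an r of 0.21. Over all pairs of SLC4A7, SLC4A4 or SLC9A8 with another member, r ranged from -0.73 (SLC4A4 and SLC4A3) to 0.71 (SLC4A7 and SLC4A2).

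A list of 32 other genes of acid-base transport and its regulators was set beside the members, and 25 of them passed the filter. It held further SLC4, SLC9 and SLC26 carriers, the voltage-gated proton channel HVCN1, partner proteins of the sodium-proton exchangers and kinases that act on ion carriers. In the 6 single CO2 comparisons edgeR called 0 of the 25 in either direction, beside 0.0113% to 8.19% of all tested genes. In the averages over lines, SLC9A3, a sodium-proton exchanger of epithelia, was called lower without LPS, and NHERF1, a scaffold protein that binds SLC9A3, was called lower with LPS. Called lower were 7.76% of tested genes in the average without LPS and 14.5% in that with LPS.

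With LPS, 1 to 3 of the 25 were called higher and 4 to 6 lower in each comparison. Of all tested genes, 11.6%, 9.26% and 13.4% were called lower at 5% CO2 and 16.1%, 18.5% and 21.5% at 10% CO2, for shNT, shNR4A2 and shNR4A3 cells. Called lower in all 6, as were 6.09% of tested genes, were the sulfate carrier SLC26A2 (mean log2 difference -0.64), the anion exchanger SLC26A6 (-0.40) and NHERF1 (-0.67). OXSR1, a kinase that acts on chloride cotransporters, was called higher in all 6 (mean 0.62). In the knockdown lines, TESC, a calcium-binding protein, was called lower in all 4 states of both lines, with mean log2 differences of -1.18 in shNR4A2 and -1.01 in shNR4A3 cells. The medians of the 25 genes were between -0.04 and 0.13 in the single comparisons of all 3 kinds, beside medians of all genes between -0.01 and 0.00.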

How the data were processed

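PolyA RNA of 36 THP-1 cultures was sequenced as paired 150-base reads. The authors' processing notes name Trimmomatic 0.36, STAR 2.5.2b, GRCh38 and featureCounts of Subread 1.5.2, and the deposited values are raw counts per Ensembl gene with each gene's exonic length. The annotation release and strand setting are not given in the sources used here. Symbols were matched for 56410 of 57500 gene rows (98.1%). Genes passing filterByExpr over all libraries (minimum count 10, minimum total 15) were tested with edgeR 4.0.16 (quasi-likelihood F test, TMM, R 4.3.3), each comparison on its own libraries, with Benjamini-Hochberg adjustment over 17720 genes and a threshold of 0.05. The study's methods used DESeq2, here (1.42.0) an alternative beside other scalings, no filter, 1 fit to all libraries, a stricter threshold of 0.01, the replicate number as a block and each library left out. Standard errors were derived from the test, as the absolute log2 difference divided by the square root of its F statistic. CPM were computed on TMM-scaled library sizes and TPM from the deposited lengths. TPM share the library with all other genes, and leaving out mitochondrially encoded genes moved 34 of 96 member means by over 1 SD. The script was tested on simulated data.

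All 8 members were named whatever their result. Members and lists were chosen with earlier results of these data known. From the list of other acid-base genes, those called in the same direction in every line and state were named, with the genes called in the averages over lines added after their values were seen. One gene of that list is not reported here. Replicate numbers come from the labels. They were taken to pair libraries where same-numbered libraries deviated together, with all 3 correlations over 0.1, which held in 7 of 20 comparisons: CO2 in basal shNR4A2 cells, LPS in shNR4A2 cells at 5% CO2 and in shNR4A3 cells at both CO2 levels, shNR4A2 against shNT at 5% CO2 with and without LPS, and shNR4A3 against shNT at 5% CO2 with LPS. Libraries of one condition differed by more than sampling noise (chi-square per degree of freedom 5.98 to 26.2). Promoter windows were taken from RefSeq (GRCh38.p14).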

Additional observations from a re-analysis of the deposited data

How the results depend on the processing

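Of 232 member comparisons, 31 were called. Of these, 26 were called in each of 6 other fits and 26 with any single library left out, and 15 of the 201 not called passed in at least 1 of those fits. Calls over the members numbered 4 of 48 for CO2, 5 of 16 for CO2 averaged over lines, 11 of 48 for LPS and 11 of 64 for knockdown. With 1 library left out they ranged from 3 to 4, stayed at 5, and ranged from 10 to 12 and from 10 to 12; the LPS by line interaction ranged from 0 to 1, the call being SLC9A8 in shNR4A3 cells without replicate 1 of shNT or replicate 2 of shNR4A3, both at 5% CO2 with LPS. The CO2 calls fell to 1 at an adjusted p under 0.01 and rose to 6 with no filter, which added SLC4A7 in basal shNT and shNR4A2 cells (adjusted p = 0.0106 and 0.0155). The knockdown calls rose to 17 with the replicate block, the added calls being SLC4A7. The LPS by line interaction gave 1 call instead of 0 with DESeq2, with no filter and with the replicate block. SLC4A2 with LPS in shNR4A3 cells at 10% CO2 went to -0.0011 (adjusted p = 0.992) with library size only. Other calls lost were SLC4A7 for CO2 in basal shNR4A3 cells (adjusted p = 0.106 in 1 fit to all libraries), SLC4A7 for CO2 in shNR4A2 cells with LPS (0.0890 with library size only), SLC4A7 for LPS in shNR4A3 cells at 5% CO2 (0.164 with library size only, 0.0656 in 1 fit) and SLC4A8 for CO2 averaged over lines with LPS (0.0871 with no filter). The cause of these changes was not tested. The replicate block changed no other member's call in the comparisons whose numbers paired the libraries; elsewhere it added calls for SLC4A4 and SLC4A2 with LPS in shNT cells at 10% CO2 (adjusted p = 0.0258 and 0.0346).

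Counts over all genes depended more on the setting. For CO2 in basal shNT, shNR4A2 and shNR4A3 cells, 109, 2 and 200 genes became 358, 43 and 550 with DESeq2, 418, 87 and 823 with no filter, 303, 58 and 107 in 1 fit to all libraries, and 144, 361 and 1073 with the block. With LPS, 1452, 35 and 378 became 1801, 600 and 885, 2238, 1112 and 1402, 1289, 1009 and 860, and 1568, 619 and 518 in the same order of settings. Library size only gave 0 for both shNR4A2 comparisons and 167 for shNR4A3 with LPS. For LPS in shNR4A2 cells at 5% CO2, 3220 became 4904 with the block and 5211 in 1 fit. For shNR4A2 against shNT the block gave 3803 against 1008 at 5% CO2, 4369 against 1101 at 5% CO2 with LPS and 6161 against 3344 at 10% CO2 with LPS. The 2 comparisons at 5% CO2 gave 1791 and 2212 in 1 fit, and the one with LPS 1834 with no filter. For shNR4A3 against shNT the block gave 2299 against 1097 at 5% and 2394 against 1213 at 10% CO2, and with LPS 3312 against 958 and 4409 against 2572. At 5% CO2 with LPS, no filter gave 1737 and 1 fit 1727. The interactions of LPS with line called 40 and 97 genes, and 84 and 284 with DESeq2, 106 and 255 with no filter and 88 and 227 with the block. The interaction of CO2 with LPS called 353, and 640, 582 and 861 under those settings. No filter called 2 genes against 0 for the CO2 interaction of shNR4A2 with LPS. Library size only moved the share of calls that were higher in the LPS comparisons from 47 to 49.2% down to 22 to 24.3%, that for CO2 in shNT cells with LPS from 54.5% to 39.2%, and that for the CO2 by LPS interaction from 59.8% to 48.2%. Low counts limit SLC4A3, SLC4A4, SLC4A8 and SLC9A9, whose medians were 8, 35.5, 59 and 25.5 counts per library.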
